A study of Mus musculus with 24 samples.

Results

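The regions described here were the 500 widest H3K27ac peaks of the wild-type (WT) mouse forelimb bud, out of 49669 WT H3K27ac peaks on chromosomes 1 to 19 and X. They were chosen by peak length alone, with equal lengths ordered by the better deposited rank, so their WT H3K27ac width and signal are a description and not a finding. Each peak is called a domain below. Histone modifications were measured by ChIP-seq in 24 libraries, 14 ChIP and 10 input. Limb libraries came from forelimb buds of WT and Shh-/- embryos on a Swiss Webster background at E10.5 with 32 to 35 somites, with 400000 cells per ChIP. By the study's methods the WT buds came from WT and heterozygous littermates together, buds of several embryos were pooled, and Shh-/- embryos carried the Shh tm1amc null allele in all cells, so every cell of those buds lacked Sonic Hedgehog (SHH). NIH3T3 cells, mouse fibroblasts in culture that can answer Hedgehog ligands, were treated for 48 h with 400 nM purmorphamine, an agonist of the Hedgehog transducer Smoothened, or with DMSO as the control, with 1000000 cells per ChIP.

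Each of the 7 peak lists was called by the authors on 2 replicates pooled: H3K27ac and H3K4me2 in WT and Shh-/- limb buds, H3K27me3 in Shh-/- limb buds, and H3K27ac in purmorphamine-treated and control NIH3T3 cells. No replicate of a list could be compared with another, so every share below is a single value with no test, and 95% intervals cover counting over domains only. Read depth is unknown from the lists. The WT H3K27ac list covered 23.2 Mb and the Shh-/- H3K27ac list covered 19.7 Mb in 43916 peaks. The H3K4me2 lists covered 22.0 Mb in WT and 19.7 Mb in Shh-/-, and the NIH3T3 H3K27ac lists covered 60.4 Mb in control and 56.6 Mb in purmorphamine. The limb and NIH3T3 H3K27ac ChIPs used different antibodies, so antibody and cell source cannot be told apart.

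Acetylation of histone H3 at lysine 27 marks active promoters and enhancers. Wide runs of it often lie over genes that define a cell's identity, where many enhancer elements sit side by side. H3K4me2 marks promoters and enhancers that are active or primed, and H3K27me3 is the Polycomb mark of repressed developmental genes. In the limb bud, SHH from the posterior margin acts through the GLI transcription factors, and in its absence GLI3 is processed into a repressor throughout the bud.

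The tissue was checked against marker genes by asking whether a transcription start lay in a WT H3K27ac peak. Starts of 11 of 14 limb mesenchyme markers did, and 6 of them, Prrx1, Prrx2, Tbx5, Lhx9, Pdgfra and Meis2, lay in the 500 domains. Starts of 0 of 15 limb ectoderm markers and 0 of 12 blood markers lay in any WT peak. Starts of 3 of 14 endothelial, 1 of 8 muscle precursor, 2 of 6 neural crest and 2 of 15 fibroblast markers did, and among these only the endothelial gene Fli1 had its start in a domain. In WT H3K4me2 peaks lay the starts of 11 of 14 mesenchyme, 7 of 15 ectoderm and 3 of 12 blood markers. There the counts were 6 of 14 endothelial, 5 of 8 muscle precursor, 3 of 6 neural crest and 10 of 15 fibroblast markers. A start outside the H3K27ac list thus does not show that a cell type was absent.

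Sequences at the highest point of 6 domains show the range of DNA that these wide domains cover. Each window is 300 bp long, centred on the position of the largest ratio of ChIP to input in the WT list, read from the plus strand of GRCm38 (mm10), with CpG dinucleotides in capitals. The windows at Tbx5, Cdk6 and Hand2 held 13, 15 and 34 CpGs, and the windows in the Dnm3 intron, near Hnrnpa3 and near Casd1 held 6, 4 and 2. The sequence is that of the reference genome and not of Swiss Webster mice.
Tbx5 intron, no start in the window (chr5:119837425-119837724): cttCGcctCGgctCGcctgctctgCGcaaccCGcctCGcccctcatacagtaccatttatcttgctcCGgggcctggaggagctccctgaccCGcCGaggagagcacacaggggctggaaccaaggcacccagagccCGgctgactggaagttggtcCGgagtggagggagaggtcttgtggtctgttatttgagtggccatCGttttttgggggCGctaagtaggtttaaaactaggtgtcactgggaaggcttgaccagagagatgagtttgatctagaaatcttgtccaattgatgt
Cdk6, the domain least kept in Shh-/- limb buds (chr5:3343475-3343774): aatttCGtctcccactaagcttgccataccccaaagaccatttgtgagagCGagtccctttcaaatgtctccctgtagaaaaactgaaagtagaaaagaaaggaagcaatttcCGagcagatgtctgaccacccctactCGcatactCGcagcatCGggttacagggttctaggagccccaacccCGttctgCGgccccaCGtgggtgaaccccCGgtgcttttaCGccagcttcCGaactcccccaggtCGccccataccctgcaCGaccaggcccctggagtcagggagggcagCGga
Hand2 coding exon (chr8:57321925-57322224): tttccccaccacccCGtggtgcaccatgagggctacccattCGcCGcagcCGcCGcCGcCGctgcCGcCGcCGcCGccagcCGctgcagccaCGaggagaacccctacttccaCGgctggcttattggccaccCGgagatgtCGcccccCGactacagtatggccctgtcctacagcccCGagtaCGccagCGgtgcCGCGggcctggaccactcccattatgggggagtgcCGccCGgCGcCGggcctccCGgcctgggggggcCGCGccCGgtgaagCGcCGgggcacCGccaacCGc
Dnm3 intron, the widest domain without a start (chr1:162018425-162018724): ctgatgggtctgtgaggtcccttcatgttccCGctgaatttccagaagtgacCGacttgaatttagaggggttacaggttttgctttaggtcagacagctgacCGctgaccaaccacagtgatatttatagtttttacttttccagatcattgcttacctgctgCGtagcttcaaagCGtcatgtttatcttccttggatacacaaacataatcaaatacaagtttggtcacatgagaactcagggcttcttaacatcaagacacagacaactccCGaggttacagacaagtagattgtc
Intergenic, 163712 bp from the start of Hnrnpa3 (chr2:75493025-75493324): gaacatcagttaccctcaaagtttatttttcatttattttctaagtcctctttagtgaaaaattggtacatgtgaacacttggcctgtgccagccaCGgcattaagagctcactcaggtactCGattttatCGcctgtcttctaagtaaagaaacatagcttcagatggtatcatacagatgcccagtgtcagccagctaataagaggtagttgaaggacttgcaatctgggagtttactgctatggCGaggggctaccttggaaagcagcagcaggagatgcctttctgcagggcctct
Intergenic, 38690 bp from the start of Casd1 (chr6:4557575-4557874): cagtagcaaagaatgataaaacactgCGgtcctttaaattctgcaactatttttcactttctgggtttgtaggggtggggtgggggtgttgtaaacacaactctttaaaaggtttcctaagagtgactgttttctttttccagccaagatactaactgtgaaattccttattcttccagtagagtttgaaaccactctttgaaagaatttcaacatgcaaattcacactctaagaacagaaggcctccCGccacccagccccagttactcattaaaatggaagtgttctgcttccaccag
The Tbx5, Cdk6 and Hand2 windows lay at least partly inside H3K4me2 peaks of WT limb buds, and the other windows lay outside all H3K4me2 peaks. The Cdk6 and Dnm3 windows lay wholly inside H3K27ac peaks of NIH3T3 control cells, and the Tbx5, Hand2, Hnrnpa3 and Casd1 windows lay wholly outside them.

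The domains ran from 2900 to 20350 bp with a median of 3600 bp, against a median of 250 bp over all WT peaks. They made up 1.01% of the peaks and 9.04% of the peak bp, 2.1 Mb in all. Only 9 reached 10000 bp and 88 reached 5000 bp. Wide domains were mostly strongly enriched. The domains' ranks in the list, which follow the strength of enrichment, ran from 1 to 9798 with a median of 1050.5, and 482 of the 500 were in the best 10% of the list. Their largest log2 ratio of ChIP to input ran from 3.99 to 8.21 with a median of 5.84, against 3.09 over all WT peaks. The width threshold fell within a tie: 28 WT peaks were 2900 bp long and 17 of them were inside. The last domains inside lay 512975 bp from Zfp536 and 100354 bp from Plcl2, with 93.1% and 98.3% of their bp inside Shh-/- H3K27ac peaks. The first peaks outside lay 32271 bp from Map1b and 13862 bp from Trim62, with 87.9% and 74.1%.

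The widest domains lay over limb patterning genes. The widest, 20350 bp at chr6:52215700-52236049, held the starts of Hoxa7, Hoxa9 and Hoxa10, homeobox genes that pattern the limb along its length. The next, 19650 bp at chr2:74683400-74703049, held Hoxd9 and Hoxd10, of the HoxD cluster. Tbx5, the T-box gene needed to start the forelimb, had the third, 15650 bp at chr5:119828400-119844049, and a second domain of 10950 bp lay 28114 bp from its start. These 4 domains were 90.1% to 98.3% covered by Shh-/- H3K27ac peaks and at most 18.2% covered by either NIH3T3 list.

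The next domains in width were of another kind. They were 13000 and 11650 bp long, overlapped the gene Dnm3, which encodes a dynamin, at chr1:162012850-162025849 and chr1:161999000-162010649, and held no protein-coding start. Shh-/- H3K27ac peaks covered 98.1% and 100% of them, and NIH3T3 control peaks covered 97.7% and 98.7%. WT H3K4me2 peaks covered 0% of both. So among the 5 widest domains, those over Hox genes and Tbx5 had H3K4me2 over 62.3% to 67.2% of their bp and those in Dnm3 had none.

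The rest of the 10 widest lay at Mecom (11550 bp), Zfp608 (11450 bp), Dusp6 (10100 bp) and 28924 bp from a start of Mecom (9950 bp). Mecom encodes a zinc-finger transcription factor and Dusp6 a phosphatase that dampens ERK signalling below FGF receptors. All 4 were covered to between 96.5% and 98.0% by Shh-/- H3K27ac. Their share in NIH3T3 control was 37.7% at Mecom, 67.7% at Zfp608, 59.4% at Dusp6 and 35.7% at the distal Mecom domain.

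**Figure D1:**
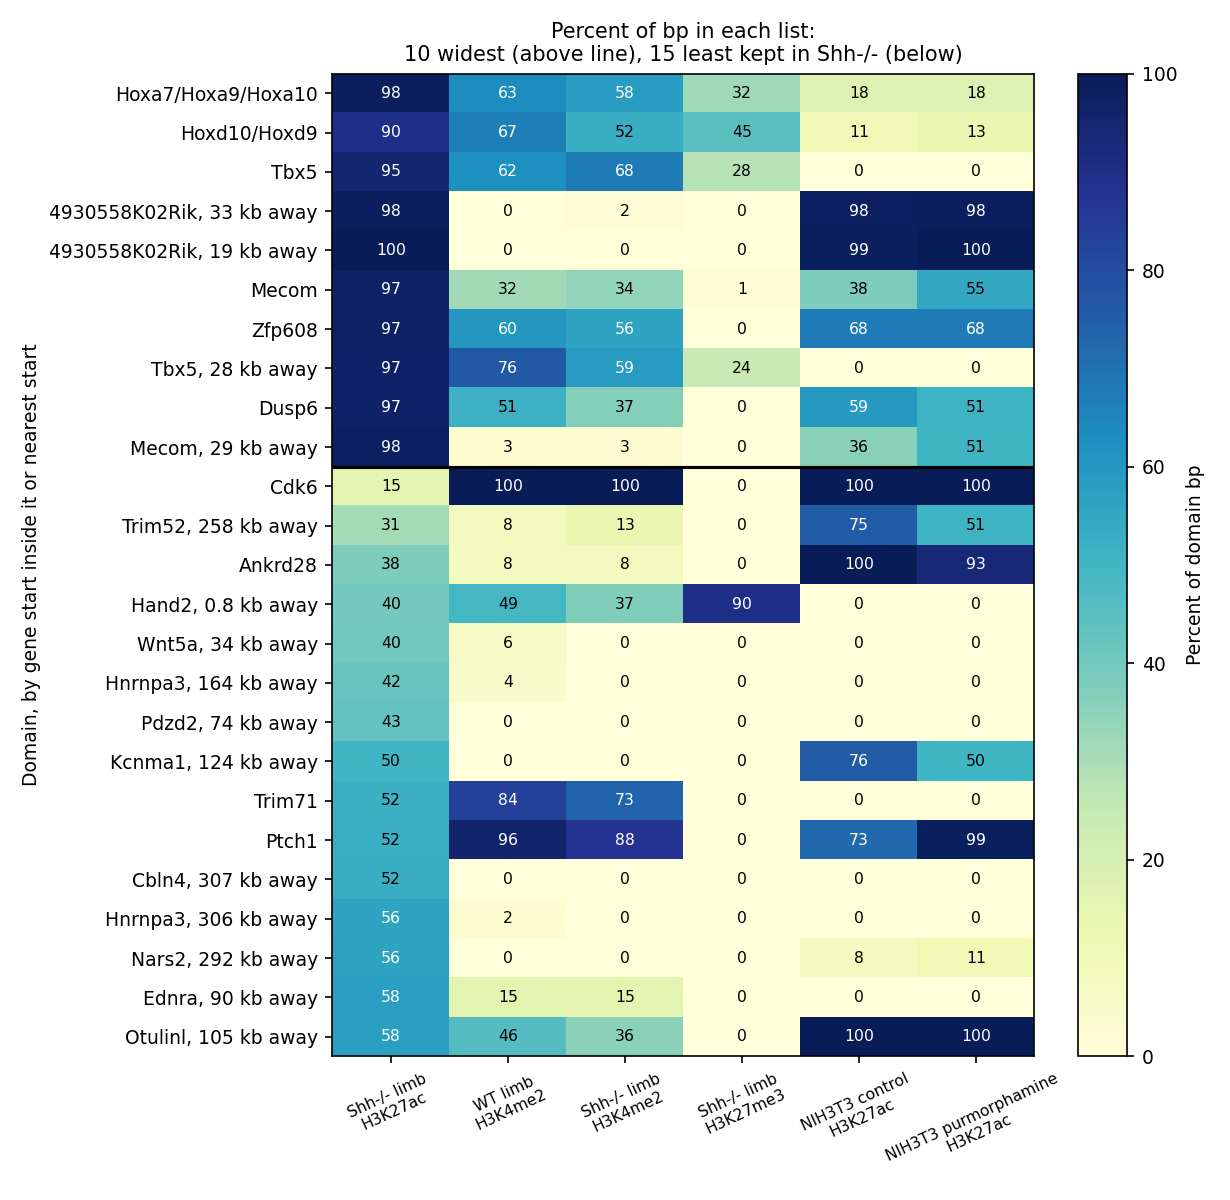
Percent of bp (cell value and colour, 0 to 100) of 25 domains, one per row, that lay inside peaks of the 6 other lists, one per column. The 10 widest domains are above the line, with 90% or more in Shh-/- H3K27ac, and the 15 least kept in Shh-/- are below it, from 15% at Cdk6 to 58% near Otulinl.

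A protein-coding transcription start lay in 166 of 500 domains (33.2%, Wilson 95% interval 29.2% to 37.4%), against 10.6% of all WT H3K27ac peaks, which are mostly much shorter and so have less room for a start. The 166 domains held the starts of 205 genes, and 32 of them held more than 1 gene. A further 35 domains held only the start of a non-coding gene. Of the 334 domains without a protein-coding start, 173 were intergenic, 117 overlapped an intron but no exon and 44 touched an exon. The median distance from these 334 to the nearest protein-coding start was 62062 bp, and 112 lay more than 100000 bp away.

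Lists of genes by role were counted by whether their starts lay in a WT peak and in a domain. Over all genes, 205 of the 5537 with a start in a WT H3K27ac peak had it in a domain (3.70%). Hox and TALE homeobox genes had 9 of 21, among them Meis1 and Meis2, cofactors that mark the proximal limb. Limb transcription factors had 19 of 49, among them Prrx1 and Prrx2 of the limb mesenchyme, Tbx15, Tbx18, Lhx9, Shox2, Nr2f2, Sox11 and Gli3. Hedgehog pathway genes had 7 of 19: the receptor Ptch1, the transcription factors Gli2 and Gli3, the co-receptor Gas1, the glypicans Gpc3 and Gpc6, and the kinase Gsk3b. The signalling lists were lower, with 4 of 17 for FGF, 5 of 27 for BMP and TGF-beta, 5 of 28 for Wnt and 1 of 10 for retinoic acid and Notch.

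The lists of chromatin regulators, cell cycle genes and genes of RNA and translation were near the share over all genes. Chromatin regulators had 3 of 73 (Brd2, Setd1b and Arid1a), cell cycle genes 2 of 36 (Cdk6 and Mycn), and genes of RNA and translation 5 of 84. Other lists stood above it, in the range of the signalling lists. Genes of the cytoskeleton, matrix and adhesion had 9 of 52 (17.3%), among them Pdgfra and Pdgfrb. AP-1 and immediate early genes had 3 of 14 (21.4%: Jund, Atf4 and Ier2). These lists were drawn up with earlier results known, so the shares describe the domains and do not test them.

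The acetylated DNA was mostly kept without SHH. A median of 93.75% of a domain's bp lay inside Shh-/- H3K27ac peaks (95% interval of the median 93.1% to 94.5%), and 90.6% of all domain bp did. In pooled buds, fewer cells with acetylation at a site and less acetylation per cell cannot be told apart. Every domain kept some bp, 421 of 500 kept at least 80%, 92 kept all of theirs, and 7 (1.40%, Wilson interval 0.680% to 2.86%) kept under 50%. WT peaks up to 1000 bp apart were also joined before the 500 widest were taken. This adds the gaps between them to the domains and can change which regions are chosen. The median was then 73.1%, and 91 of those 500 domains (18.2%) were under 50%. The part of the gaps and of the choice in this drop was not tested. Over all WT peaks, with a median of 250 bp, 58.9% kept under 50%, and over the next 500 widest peaks 12 did (2.40%). By bp, all WT peaks kept 59.7% and the next 500 widest 86.2%. The lists were called separately, so a weak peak can miss the threshold in one of them. The paper, comparing reads over merged peaks, reports most H3K27ac regions as present in both genotypes. The share of bp was also taken in the other direction for the 500 widest Shh-/- H3K27ac peaks, which were chosen in the other list. Their median share inside WT peaks was 95%, and 1 of them had under 50%.

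Width itself also recurred. Of the 500 domains, 319 (63.8%) overlapped the 500 widest Shh-/- H3K27ac peaks, and 326 of those peaks (65.2%) overlapped a domain. The overlap with the 500 widest peaks of WT H3K4me2 was 44 domains (8.80%) and 45 peaks (9.00%). With NIH3T3 control H3K27ac it was 54 domains (10.8%) and 51 peaks (10.2%), and with NIH3T3 purmorphamine H3K27ac 53 domains (10.6%) and 52 peaks (10.4%).

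**Figure D2:**
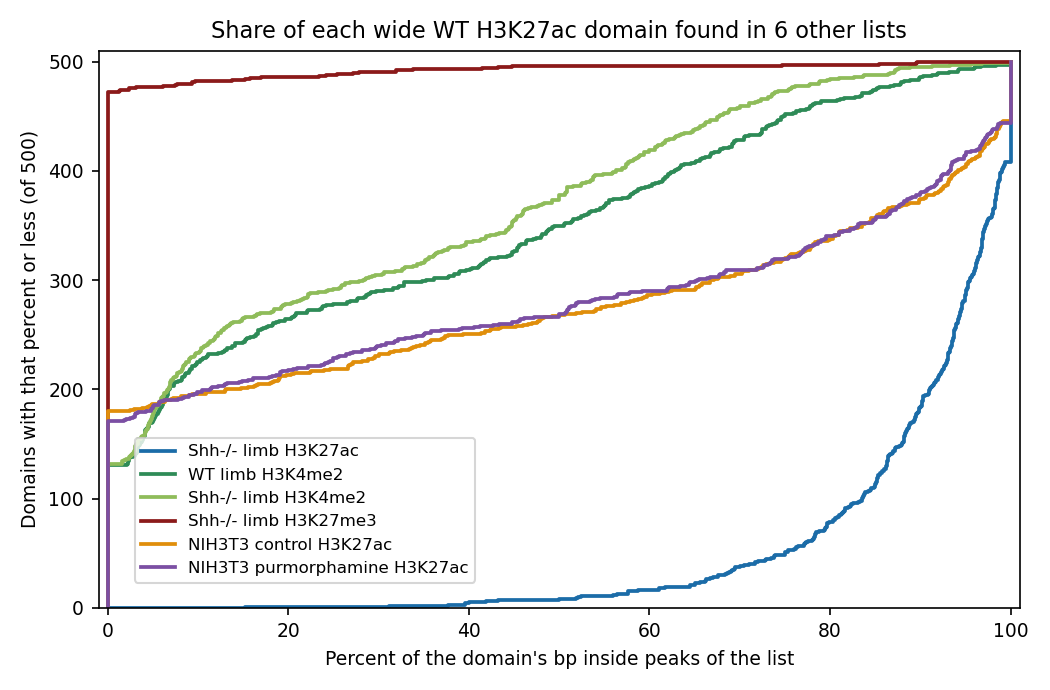
Cumulative number of the 500 domains (vertical axis) with a given percent of bp or less inside peaks of each of 6 lists (horizontal axis, 0 to 100%), one line per list. The line for Shh-/- H3K27ac stays low until 80%, the NIH3T3 lines start at 180 domains (control) and 171 domains (purmorphamine) with 0%, and the H3K27me3 line starts at 472.

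The bp outside Shh-/- peaks were few and spread. They summed to 197950 bp, of which 52.4% lay at the ends of domains and 47.6% between Shh-/- peaks inside them. A single Shh-/- peak covered what was kept in 209 domains, 2 covered it in 165, and 3 or more in 126, with at most 8, over Hoxd9 and Hoxd10. The Shh-/- peaks touching a domain were together wider than the domain in 202 cases. The largest log2 ratio of ChIP to input was higher in WT than in the strongest Shh-/- peak touching the domain by a median of 0.29, with quartiles of -0.17 and 0.75. These ratios come from separate ChIPs and inputs, and no common scale was set.

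The share kept went with the strength of the WT signal. In the 125 domains with the lowest log2 ratios the median kept was 88.3% and 37 kept under 80%, and in the 125 with the highest it was 96.1% and 11 did. Of the 7 domains under 50%, 6 were in the lowest group.

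The 15 least kept domains ran from 15.2% to 57.6% and from 2950 to 4650 bp. A protein-coding start lay in 4, Cdk6, Ankrd28, Trim71 and Ptch1. An exon of Hand2 was touched by another, 5 lay in introns and 5 were intergenic. In 8 of the 15, neither NIH3T3 list had any bp, against 33% of the 500 domains and 58.4% of all WT peaks. In 12 the log2 ratio was lower in Shh-/- by more than the median difference of all domains, and in 2 it was higher in Shh-/-.

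Cdk6, a G1 cyclin-dependent kinase, had the least kept domain, 3300 bp at chr5:3341200-3344499. It kept 15.2% in 2 short pieces, with 1350 and 750 bp missing at its ends and 700 bp between them. H3K4me2 peaks covered all of it in both WT and Shh-/- buds, and H3K27ac peaks covered all of it in both NIH3T3 conditions. Its log2 ratios were near the bottom of the domains, 4.34 in WT and 3.73 in Shh-/-. Ankrd28, a subunit of phosphatase complexes, was alike in signal. Its domain of 3050 bp ranked last in enrichment of all 500, at 9798, with log2 ratios of 3.99 in WT and 3.06 in Shh-/-, and kept 37.7%.

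Ptch1 and Trim71 stood higher in the list. Ptch1 encodes the receptor of SHH and is itself a direct target of GLI proteins. Its domain of 3650 bp at chr13:63562700-63566349, over the gene's starts, kept 52.1%, with 1350 bp missing at the right end and 300 bp at the left. The log2 ratios were 5.64 in WT and 4.67 in Shh-/-, while H3K4me2 covered 95.9% of the domain in WT and 87.7% in Shh-/-. In NIH3T3 cells 72.6% of it was acetylated with DMSO and 98.6% with purmorphamine. Trim71, an RNA-binding regulator of early progenitors, ranked 7 of all WT peaks, with log2 ratios of 7.49 in WT and 5.62 in Shh-/-, and kept 51.9% of 3950 bp, with 1500 bp missing at its left end. Neither NIH3T3 list reached it.

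Most of the Hand2 domain lay under H3K27me3 in the Shh-/- bud, while the domains of Cdk6, Ankrd28, Ptch1 and Trim71 had no H3K27me3 bp. Just outside the Ptch1 domain, Shh-/- H3K27me3 peaks lay 2.38 to 2.47 kb and 3.98 to 5.82 kb right of its centre. The paper names Ptch1 among the targets with GLI-bound regions under H3K27me3 in Shh-/- buds. Hand2 encodes a bHLH factor of the posterior limb bud that acts upstream of Shh. The domain, 4300 bp at chr8:57321800-57326099, begins 817 bp from the start of Hand2, holds the start of the non-coding gene Hand2os1, and is separated from a further WT peak over the Hand2 start by a short gap. It kept 39.5% in 5 pieces, with all 2600 missing bp between them and none at its ends. H3K27me3 peaks of Shh-/- buds covered 89.5% of it. H3K4me2 covered 48.8% in WT and 37.2% in Shh-/-. H3K27me3 was mapped only in Shh-/- buds, so the WT level of this mark was not analysed here.

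**Figure D3:**
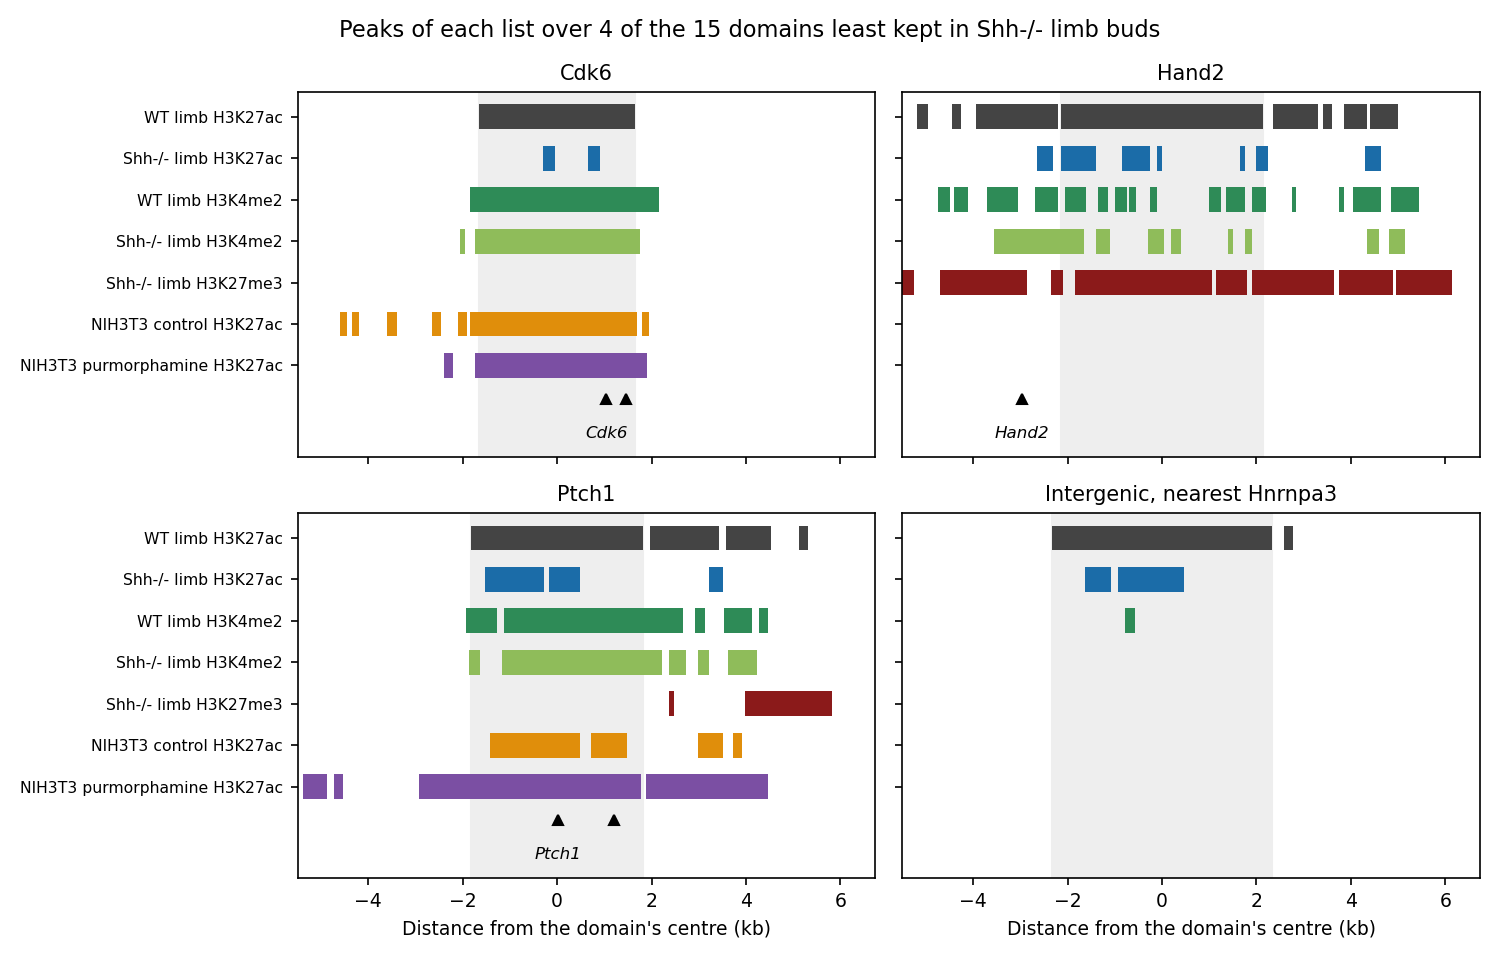
Peaks of the 7 lists (rows, coloured bars) against distance from the centre of the domain in kb at Cdk6, Hand2, Ptch1 and an intergenic domain 163712 bp from Hnrnpa3. The domain is shaded, and triangles mark protein-coding starts. Shh-/- H3K27ac bars fill 15.2%, 39.5%, 52.1% and 41.9% of the shaded widths.

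The remaining domains of this set were distal. A domain of 3050 bp lay 257502 bp from Trim52 and kept 31.1%. A domain of 3250 bp in an intron of Erc2, 34401 bp from the start of Wnt5a, kept 40.0%. Wnt5a, a ligand that drives limb outgrowth, held 2 further domains at its own starts, which kept 89.3% and 69.3%. A domain of 4400 bp in an intron of Pdzd2 kept 43.2%, with log2 ratios of 6.15 in WT and 4.27 in Shh-/-, and had no bp in either H3K4me2 list or in NIH3T3 cells. Domains within Kcnma1, Tenm4 and Trio and those nearest Cbln4 and Ednra kept between 50.0% and 57.6%.

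A pair of the 15 lay near each other on chromosome 2 in the gene-poor stretch between the HoxD cluster and Hnrnpa3. The domain at chr2:75490900-75495549 kept 41.9% of 4650 bp and the domain at chr2:75349350-75353549 kept 56.0% of 4200 bp. Neither had any NIH3T3 bp. The first belonged to 4 domains within 94450 bp, beginning 718700 bp past the Hoxd9 and Hoxd10 domain. These 4 kept 64.5% of their 15050 bp, between 41.9% and 89.9% each, and WT H3K4me2 covered 6.64%. The Hoxd9 and Hoxd10 domain itself kept 90.1%.

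Other members of the pathways kept more. In the Hedgehog list, the domains of Gli3 (99.2%), Gas1 (97.9%), Gli2 (95.9%), Gpc3 (94.6%), Gsk3b (88.2%) and Gpc6 (86.7%) all kept more than the 52.1% at Ptch1. In the FGF list, the domain of Dusp6 kept 96.5%. That of the feedback inhibitor Il17rd kept 93.7% and that of Spred1, an inhibitor of RAS signalling, 68.9%. A domain holding an annotated start of Fgfr2 kept 100%. The Fgfr2 annotation reaches chr7:133123350, beside Ctbp2, which reaches chr7:133124354 and also has a start in a domain. Which Fgfr2 start lay in the domain was not examined. All 5 BMP and TGF-beta domains kept at least 96.9%. These were at the inhibitor Smad7, the corepressor Tgif1, and Id1, Id2 and Id3, the Id genes being direct BMP targets. Mycn, a growth-promoting factor on both the limb and the cell cycle lists, kept 76.5%.

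H3K4me2 split the domains by whether they held a start. WT H3K4me2 peaks covered a median of 16.4% of a domain's bp and covered under 50% in 350 of 500 domains (70.0%), against 75.7% of all WT H3K27ac peaks. In the 166 domains with a protein-coding start the median was 62.4%, and in the 334 without it was 4.62%. By bp there was little between them: WT H3K4me2 peaks covered 31.1% of domain bp and 29.9% of the bp of all WT peaks. No WT H3K4me2 bp at all lay in 131 domains (26.2%). The share was 67.9% over all WT H3K27ac peaks, which are mostly much shorter and so have less room to touch a peak. Of the 131 domains, 130 had no start. The exception, named here after its values were seen, was Prrx2, whose 5450 bp domain had no H3K4me2 in either genotype and kept 99.1%. H3K4me2 peaks are narrower than the domains: the widest was 5650 bp in WT.

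The 5 widest domains without WT H3K4me2 were the pair in Dnm3, a domain 38690 bp from Casd1 (8600 bp), a domain 10700 bp from Gpc3 on chromosome X (8550 bp) and a domain in an intron of Gpc5 (6150 bp). The Casd1, Gpc3 and Gpc5 domains had no bp in either NIH3T3 list and kept 99.4%, 92.4% and 87.0% in Shh-/-. The Dnm3 domains were covered almost wholly in NIH3T3 cells. Over all 500 domains, the median WT H3K4me2 share was 3.23% in the 165 domains with no bp in either NIH3T3 list and 51.3% in the 141 covered to at least 80% by both.

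In Shh-/- limb buds H3K4me2 covered a median of 12.2% of a domain. The share was higher in WT for 254 domains, higher in Shh-/- for 139 and equal for 107, of which 90 had no H3K4me2 in either genotype, with a median difference of 1.16 percentage points. It was more than 20 points higher in WT for 36 domains and in Shh-/- for 3. At Gas1 the share was 74.7% in WT and 34.7% in Shh-/-, and at the domain 589 bp from Lmx1b, the dorsal limb selector, 75% and 42.3%. These 2 domains kept 97.9% and 99.0% of their H3K27ac. By bp, H3K4me2 covered 31.1% of the domains in WT and 27.2% in Shh-/-. Over all WT H3K27ac peaks the shares were 29.9% and 26.2%. The Shh-/- H3K4me2 list covers fewer bp than the WT list as a whole, and the part of that in these differences was not tested. The paper, comparing reads between genotypes, reports nearly all H3K4me2 peaks as unchanged and no GLI3-bound region as significantly reduced.

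**Figure D4:**
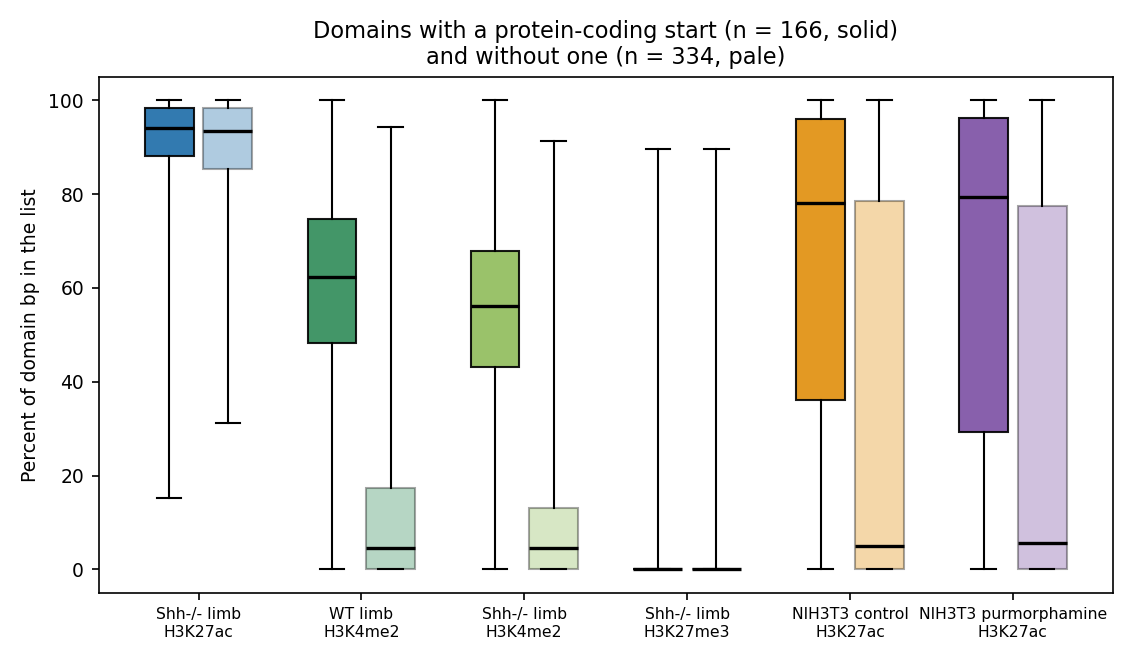
Percent of domain bp in each of 6 lists (vertical axis) for the 166 domains with a protein-coding start (solid boxes) and the 334 without (pale boxes). Boxes span the quartiles, lines the median, whiskers the full range. Medians with and without a start are 62.4% and 4.62% for WT H3K4me2 and 78.0% and 4.88% for NIH3T3 control H3K27ac, but 94.0% and 93.5% for Shh-/- H3K27ac.

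H3K27me3 of Shh-/- buds touched 28 domains (5.60%, Wilson interval 3.90% to 7.97%), against 0.725% of all WT H3K27ac peaks. Only 47.2% of the H3K27me3 peaks had a false discovery rate under 0.05, and those alone touched 20 domains (4.00%). Wide domains have more room to touch a peak, and by bp the mark covered 2.58% of the domains and 0.625% of all WT peaks. Among the 50 widest domains 11 were touched. The domains with most H3K27me3 lay at developmental regulators, where the mark is known from many tissues. Coverage was 44.8% at Hoxd9 and Hoxd10, 31.9% at Hoxa7 to Hoxa10, 85.4% at Hoxa11, 41.4% at the second Hoxa10 domain, 27.8% at Tbx5 and 24.2% at its upstream neighbour. It was 89.6% at Igf2, the imprinted growth factor, 89.5% at Hand2, 74.7% at Zic2, a zinc-finger gene of the Zic family, and 43.3% beside Lmx1b.

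Both marks thus covered the same bp of pooled Shh-/- buds at some of these genes. Igf2 kept 97.2% of its acetylated bp with 89.6% under H3K27me3, while Hand2 kept 39.5% with 89.5%. Hoxa11 kept 79.9% and Zic2 85.3%. Of the 28 domains, 26 kept at least 80% and only Hand2 kept under 50%, and their median was 96.1%. In bulk buds, cells carrying the marks separately and cells carrying both cannot be told apart.

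In NIH3T3 cells the domains fell into those with none of their bp acetylated, those acetylated almost throughout, and a broad middle. Control peaks covered under 50% in 267 domains (53.4%), against 64.8% of all WT peaks, with a median of 38.5% (95% interval 28.8% to 54.0%). By bp there was little between them: control peaks covered 44.4% of domain bp and 44.1% of the bp of all WT peaks. In 165 domains (33%) neither NIH3T3 list had any bp, in 141 (28.2%) both covered at least 80%, and 194 lay between. Over all WT peaks 58.4% had no bp in either and 27.2% were covered to at least 80% by both. A protein-coding start lay in 10.3% of the first, 52.5% of the second and 38.7% of the third. The median kept in Shh-/- limb buds was 92.8%, 95% and 93.8% in turn.

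The widest domains absent from both NIH3T3 lists lay at limb regulators or away from any start. Tbx5 and its upstream neighbour came first, then the domains near Casd1 and Gpc3. An intergenic domain of 8450 bp lay 60489 bp from Lmx1b and kept 72.8%, the lowest of these 10. Sox11, a progenitor SoxC factor, had a domain of 7350 bp that kept 97.3%, and Hoxa11 a domain of 7200 bp that kept 79.9%. Domains lay 246571 bp from Nfe2l3 (7250 bp), 115502 bp from Gli3 (6300 bp) and within Gpc5 (6150 bp). These domains were chosen for having no bp in either NIH3T3 list, so their absence there is not a finding.

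Limb regulators were not all absent from the fibroblasts. Both NIH3T3 lists covered the whole of the 8600 bp domain at Prrx1, and control peaks covered 98.8% of the 8250 bp domain at Meis1 and 93.8% at Tbx15. At Lhx9 the control share was 39.4% and at Shox2 50.7%. Over the Hox and TALE domains the median control share was 18.2%, over the limb transcription factors 78.1% and over the Hedgehog list 77.9%.

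Differences between purmorphamine and control ran in both directions. The median difference was 0 percentage points and 223 domains were equal, but 165 of these had no bp in either list. Among the other 335 the median was also 0 and 58 were equal. Over all 500, 23 were more than 20 points higher with purmorphamine and 26 more than 20 points higher with DMSO. The 5 with the largest excess in purmorphamine were Kif26b (16.2% in control, 73.5% in purmorphamine), a domain 89135 bp from Gas1 (4.84%, 56.5%), a domain 13268 bp from Mrpl23 (28.8%, 77.3%), Hes1 (54.0%, 96.8%) and a domain in Igsf3 (9.32%, 50.0%). Hes1 encodes a transcriptional repressor best known downstream of Notch. The 5 with the largest excess in control were a domain in Cdk15 (78.7%, 9.84%), a domain 212614 bp from Usp24 (67.5%, 10.4%), domains 86828 bp (100%, 43.3%) and 106578 bp (70.2%, 19%) from Nxnl2, and Tcf12 (75.6%, 25.6%). With a single pooled list per condition, shifts as large in either direction carry no error estimate.

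**Figure D5:**
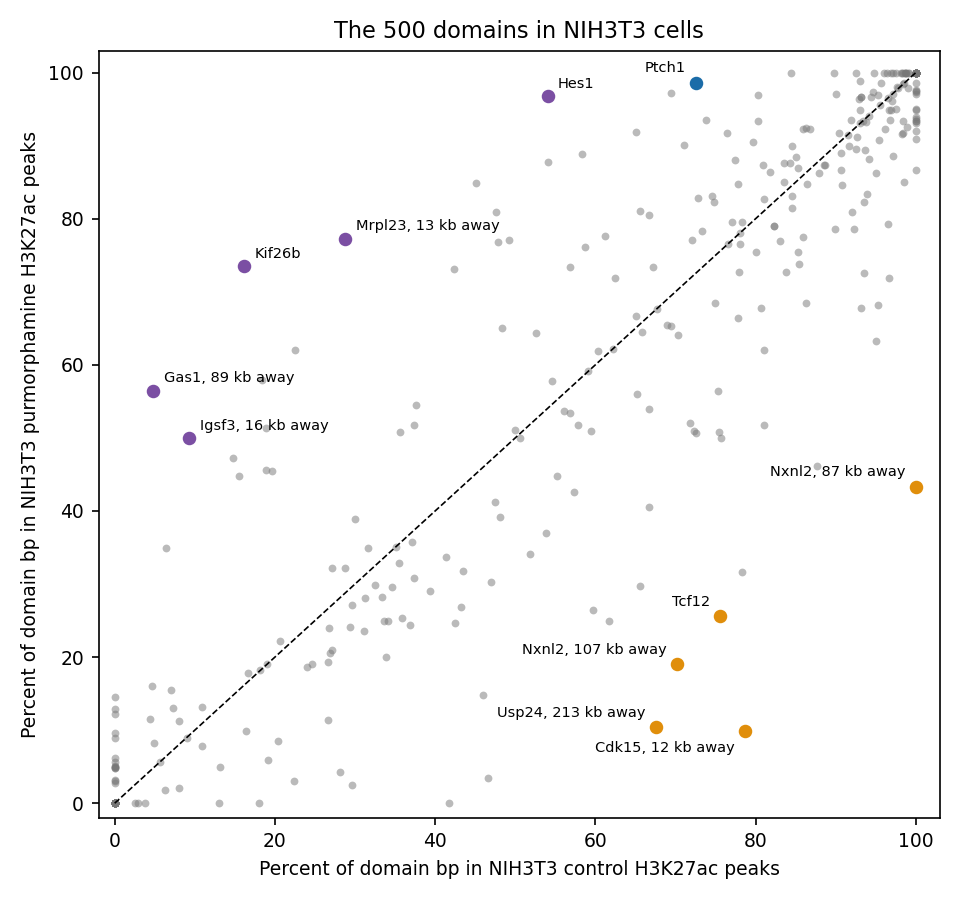
Percent of each domain's bp inside NIH3T3 control H3K27ac peaks (horizontal axis) and NIH3T3 purmorphamine H3K27ac peaks (vertical axis), 1 point per domain. The dashed line marks equal shares. The 5 largest excesses in each direction are coloured and named, and Ptch1 (72.6% and 98.6%) is in blue.

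With gaps of up to 50000 bp the domains formed 383 loci, of which 72 held more than 1 domain and 189 domains in all. No such count was made for other WT peaks, so whether wide domains group more than others was not tested. Some loci were nearly unbroken runs: at Tnrc18, 2 domains filled 11150 of the 11250 bp spanned. Loci of 4 or more numbered 11 and held 54 domains. Chromosomes 2 and 3 each carried 49 domains and chromosome 13 carried 44, while chromosome 19 carried 4 and X carried 5. Per 1000 WT peaks that is 17.9 on chromosome 13 and 3.35 on chromosome 19.

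The histone gene clusters, singled out after their values were seen, made up 24 domains with the starts of 50 histone genes, 21 on chromosome 13 and 3 on chromosome 3. They were 3150 to 8500 bp wide and kept a median of 92.3%, with a range from 69.1% to 100%. Their median share in NIH3T3 control was 31.2%. Histone genes are near-identical copies, so reads may be split among them and their single values are uncertain.

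In Dnm3, 6 domains within 95450 bp on chromosome 1 summed to 41850 bp, kept 98.9% and had 79.6% of their bp in NIH3T3 control and 85.4% in purmorphamine peaks, with 0.478% in WT H3K4me2 peaks. A run of 4 domains within 26300 bp on chromosome 7, nearest Mrpl23, kept 94.9%, with 47.6% in NIH3T3 control and 76.0% in purmorphamine. A run of 4 within Trps1, the zinc-finger gene of the trichorhinophalangeal syndrome, kept 91.8%, with 97.2% in control and 85.9% in purmorphamine. Across all 72 loci of more than 1 domain the median kept was 92.8%, and the lowest were the pair in Tenm4 (63.2%), the run of 4 beyond the HoxD cluster (64.5%) and the 3 domains around Wnt5a (67.4%).

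Several domains, with or without a protein-coding start, lay over microRNA genes. MicroRNAs bind target messages through the seed, bases 2 to 8 of the mature strand, in capitals here. The sequences are RefSeq's on GRCm38. Those shown are the mature strands that share a seed between domains, the 5p strand of miR-199a, and 1 strand each of miR-196b and let-7i.
miR-199a-3p (chr1:162217883-162217904, plus strand): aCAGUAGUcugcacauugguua
miR-199b-3p (chr2:32318524-32318545, plus strand): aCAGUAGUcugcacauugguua
miR-199a-5p (chr1:162217844-162217866, plus strand): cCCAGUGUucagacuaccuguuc
miR-196b-5p (chr6:52230129-52230150, minus strand): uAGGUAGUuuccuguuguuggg
let-7i-5p (chr10:122985698-122985719, minus strand): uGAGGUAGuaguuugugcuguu
The identical 3p strands of miR-199a and miR-199b share the seed CAGUAGU and come from different domains. The first lies in the 8600 bp domain at chr1:162214800-162223399 over the non-coding gene Dnm3os, inside Dnm3, which also reaches the start of the miR-214 hairpin. The second lies in a 5800 bp domain at chr2:32315550-32321349. Both domains were kept almost wholly in Shh-/- (99.4% and 100%) and covered in NIH3T3 control (100% and 99.1%). The let-7i domain, 3450 bp, kept 89.9% with 97.1% in NIH3T3 control. miR-196b lies in the widest domain, inside the annotated span of Hoxa9.

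The letters of the domains were searched for the GLI consensus GACCACCCA on both strands. It occurred 13 times in 13 domains, 6.19 times per Mb, against 8.60 per Mb over all WT H3K27ac peaks. None of the 300 bp windows at the domains' highest points held it, against 0.248% of such windows over all WT peaks. Matches are shown with 20 bases on each side, the match in capitals, for the 2 domains with a match that kept least and for 2 others that were well kept.
Domain 90014 bp from Ednra (chr8:77815320-77815368, minus strand): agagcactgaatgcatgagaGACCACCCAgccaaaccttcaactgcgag
Domain 327511 bp from Npvf (chr6:50986635-50986683, minus strand): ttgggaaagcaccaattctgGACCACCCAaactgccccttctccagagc
Domain 62817 bp from Kifap3 (chr1:163844684-163844732, plus strand): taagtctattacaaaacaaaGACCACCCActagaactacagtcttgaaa
Domain over Dnm3os (chr1:162220787-162220835, plus strand): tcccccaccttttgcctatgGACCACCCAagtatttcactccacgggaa
These domains kept 57.6%, 66.1%, 92.8% and 99.4% in turn. Of all 13 matches, 11 lay inside Shh-/- H3K27ac peaks. The 2 outside were the match near Npvf and a match near Midn, in a domain that kept 82.0%. No exact match lay in the domains of Ptch1, Hand2 or Cdk6, which says only that these letters were not there. CpGs in the windows followed the starts, with a median of 15 in the 166 domains with a start and 3 in the 334 without, against 26 and 3 for the same classes over all WT peaks.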

How the data were processed

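Histone ChIP-seq was analysed from 7 peak lists, with groups taken from the sample labels. Per the submitters' processing notes reads were aligned to mm10 with Bowtie2 2.2.5, and the authors called peaks with CisGenome 2.1.0 against input on both replicates together. The deposited values per peak were its position and length, a false discovery rate (a q-value), a score on which the authors ranked peaks, the log2 ratio of ChIP over input at its largest, computed by the authors, and the deposited −log10 of the smallest Poisson p-value. Scores were at least 3.00 in every list. Highest false discovery rates differed between lists, from 0.000805 in NIH3T3 purmorphamine H3K27ac to 0.255 in Shh-/- H3K27me3.

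Peaks of each list were merged, and the bp of each domain inside them were counted with Python 3.11.15 and pandas 2.3.3. The counts were tested on simulated data and gave the same bp as bedtools 2.31.1 in all 6 compared lists. All peak ends lay within the GRCm38 chromosomes. Starts of all transcripts in the basic GENCODE M21 annotation gave gene positions. Domains were named by the protein-coding starts inside them, or else by the nearest one. Those named were the 10 widest, the 15 least kept, the widest without NIH3T3, without WT H3K4me2 or without a start, the 5 largest NIH3T3 differences each way, the 10 with most H3K27me3 bp, the domains at the width threshold, and up to 4 per gene list. Further domains of the gene lists, with Prrx1, Prrx2, Meis1, Tbx15, Lhx9, Shox2, the histone clusters and the microRNA domains, were named after their values were seen. The domains, gene lists and rules were chosen with earlier results of these data known. Alternatives changed the compared list, the number of domains, the joining of peaks and the thresholds. Read depth per library is not given in the sources used here.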

Additional observations from a re-analysis of the deposited data

How the results depend on the processing

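No paired analysis was possible because each list pools its replicates, which also prevented leaving out a replicate. Joining WT peaks up to 1000 bp apart first adds the bp between called peaks to the domains and can change which 500 are widest. It moved the median kept in Shh-/- H3K27ac from 93.75% to 73.1% and the domains under 50% from 1.40% to 18.2%. It gave medians of 4.80% for WT H3K4me2, 5.38% for Shh-/- H3K4me2, 14.5% for NIH3T3 control and 12.9% for purmorphamine, with 68.4% of domains under 50% in control, 79.4% under 50% in WT H3K4me2, and 68.6% among the widest of Shh-/-. Joining compared peaks up to 500 bp apart gave medians of 100% in Shh-/- H3K27ac and 23.3% in WT H3K4me2, with 62.6% of domains under 50% in the latter. The better-ranked 50% of a list gave medians of 0 for H3K4me2 in both genotypes, with 82.2% of domains under 50% in WT. Pooling bp gave 90.6% in Shh-/- H3K27ac, 31.1% in WT H3K4me2 and 27.2% in Shh-/- H3K4me2. With the 1000 widest the median kept was 92.5%. H3K27me3 touched 8.00% of the 250 widest and 3.80% of the 1000 widest. A threshold of 80% gave 15.8% of domains in Shh-/- H3K27ac, 67.4% in NIH3T3 control and 92.8% in WT H3K4me2. Counting starts with 2 kb upstream and 1 kb downstream of them gave 38.4% of domains with a start. All other alternatives stayed within the 95% binomial interval of the value reported, including leaving out the histone gene domains, an alternative added after seeing the data. That interval takes domains as independent, though 189 lay in loci of more than 1 domain. It is wide for NIH3T3: alternatives inside it gave medians from 30.5% to 47.3% in control and from 27.1% to 48.4% in purmorphamine. Depth and replicate spread are unknown, so small shifts of peak ends cannot be weighed.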
